A study of Mus musculus with 7 samples.

Results

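Cholesterol synthesis and its control were examined as 32 genes: 7 of the mevalonate pathway, 11 of squalene and sterol synthesis, 5 of the sterol-regulated control of transcription, 4 of cholesterol movement and storage, and 5 of efflux, including its nuclear receptors and Apoe. Members were found by matching the accession of each non-control probe to the listed gene symbols, and the brightest probe over all arrays represented each gene. A probe was found for 31 of the 32, and all 31 were tested, against 13662 tested of 22907 named genes on the array. Acat2 had no matched probe and was not analysed here.

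RNA was measured on single-colour arrays in pancreatic islets of 7 male mice, from crosses to C57BL/6J. The 4 Wnt4βKO mice carried floxed Wnt4 alleles (Wnt4fl/fl) and the Pdx1CreER transgene, in which the Pdx1 promoter drives a Cre that tamoxifen activates, so that β-cells, one of several islet cell types, are targeted. The 3 control mice were Wnt4fl/fl without the transgene. Both groups received tamoxifen (50 mg/mL) by gavage from 4 to 5 weeks of age, and islets were taken at 7 weeks. The presence of Cre and the loss of Wnt4 therefore cannot be told apart on these arrays. The paper reports a normal glucose response in heterozygous mice with the transgene (Pdx1CreER;Wnt4fl/+), but no such mouse is among these samples. The study left out 1 further control sample on quality grounds, and the titles carry a code, w11, that the labels do not explain.

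Cells make cholesterol from acetyl-CoA through mevalonate, which is turned into farnesyl pyrophosphate, then squalene, then lanosterol and the sterols that lead to cholesterol. When sterols are scarce in the endoplasmic reticulum, Scap carries SREBP proteins to the Golgi, where they are cut to release transcription factors that switch on most of these enzymes. When sterols are plentiful, the Insig proteins hold Scap back, and oxysterols activate the LXR receptors, which switch on genes for cholesterol export. In β-cells, membrane cholesterol is known to bear on ion channels and on the release of insulin granules.

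The promoters of 5 members are shown as examples, chosen after the values were seen. Hmgcs1, Idi1, Lss and Insig1 had a term for the row of the slide above 0 at an unadjusted limma p of 0.05, none past an adjusted one. Sc5d was among the 3 members whose groups did not overlap. Insig2, whose groups did not overlap either, and Srebf1 and Npc2, whose row terms were below 0, also had sequences and are not printed. Each run is the 250 bases before the transcription start in RefSeq (GRCm38.p6), 5′ to 3′ on the strand of the gene. Capitals mark 3 motifs on either strand: TCACNCCAC, the form of the sterol regulatory element searched here, CCAAT, the site of NF-Y, and GGGCGG, a site for Sp1-type factors.
Hmgcs1, chr13:119690101-119690350, plus strand: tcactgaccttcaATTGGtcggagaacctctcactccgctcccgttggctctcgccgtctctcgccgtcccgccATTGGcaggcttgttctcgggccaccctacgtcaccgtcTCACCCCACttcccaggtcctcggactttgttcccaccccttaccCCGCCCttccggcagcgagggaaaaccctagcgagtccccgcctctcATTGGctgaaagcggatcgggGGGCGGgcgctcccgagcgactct
Idi1, chr13:8885356-8885605, plus strand: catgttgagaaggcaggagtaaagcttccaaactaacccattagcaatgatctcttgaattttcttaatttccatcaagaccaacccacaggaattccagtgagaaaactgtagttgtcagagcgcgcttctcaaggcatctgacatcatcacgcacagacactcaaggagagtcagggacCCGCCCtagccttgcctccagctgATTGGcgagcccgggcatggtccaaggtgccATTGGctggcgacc
Lss, chr10:76531355-76531604, plus strand: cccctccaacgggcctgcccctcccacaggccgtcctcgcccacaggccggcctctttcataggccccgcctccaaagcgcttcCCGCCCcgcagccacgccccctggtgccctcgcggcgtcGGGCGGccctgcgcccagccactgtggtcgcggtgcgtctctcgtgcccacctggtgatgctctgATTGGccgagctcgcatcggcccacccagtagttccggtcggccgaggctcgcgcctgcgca
Insig1, chr5:28071162-28071411, plus strand: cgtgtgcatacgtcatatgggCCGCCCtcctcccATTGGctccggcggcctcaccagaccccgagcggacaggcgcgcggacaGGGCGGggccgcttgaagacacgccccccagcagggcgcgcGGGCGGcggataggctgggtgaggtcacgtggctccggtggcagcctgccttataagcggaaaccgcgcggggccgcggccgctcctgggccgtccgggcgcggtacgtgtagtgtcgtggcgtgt
Sc5d, chr9:42264301-42264550, minus strand: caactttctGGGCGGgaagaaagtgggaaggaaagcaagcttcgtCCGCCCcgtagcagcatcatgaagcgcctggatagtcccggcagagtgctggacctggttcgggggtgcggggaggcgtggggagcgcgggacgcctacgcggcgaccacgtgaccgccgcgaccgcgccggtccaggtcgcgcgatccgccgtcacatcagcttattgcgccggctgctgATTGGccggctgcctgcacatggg

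Of the 32 members, 26 had a promoter window in the table. These members have 37 windows in all, some genes having several starts, and all genes have 32851 windows of the same length. TCACNCCAC was found in 1 of the 37 member windows, that of Hmgcs1, where it reads TCACCCCAC and begins at position -137 from the start, and in 1.05% of all windows. CCAAT was found in 21 of the 37 and in 33.8% of all windows. GGGCGG was found in 24 of the 37 and in 32.7% of all windows. CACGTG, an E-box, is not marked; it was found in 6 of the 37 and in 6.02% of all windows. No marked motif overlaps another in the printed runs. The printed promoters of Hmgcs1, Idi1, Lss, Insig1 and Sc5d each held both CCAAT and GGGCGG. These are matches of letters only.

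The comparison between the groups asked how loss of Wnt4 in β-cells changes islet transcripts. After Benjamini-Hochberg adjustment of the limma p over all 26151 tested probes, 0 members were under 0.05, beside 0.0153% of the probes, and the adjusted p over the members ran from 0.398 to 0.998. At an unadjusted limma p of 0.05, 2 of 31 members were lower in Wnt4βKO islets, Fdps and Insig2, beside 3.63% of all probes, a share that comes to 1.12 of 31. None was higher, beside 3.33% of all probes. The median log2 difference was -0.02 over the members and 0.0027 over all probes, with 20 members below 0 and 11 above. In 3 members (Fdps, Insig2 and Sc5d) the groups did not overlap and Wnt4βKO was lower, beside 3.7% of all probes, and in 0 members it was higher without overlap, beside 3.54%. These counts differ from the shares over all probes by 1 or 2 genes in each direction. Unadjusted values are given to rank the genes, and an exact permutation test of 3 against 4 arrays cannot go below a two-sided p of 0.0571.

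The targeted gene was read first on every array. Array values are listed throughout in order of replicate number, 2 to 4 for control and 1 to 4 for Wnt4βKO. The log2 signal of Wnt4 was 11.56, 11.17 and 11.77 on the control arrays, against 11.30, 10.80, 11.04 and 10.92 on the Wnt4βKO arrays. The Wnt4βKO mean was 71.3% of the control level, and Wnt4βKO replicate 1 lay above control replicate 3 (unadjusted limma p 0.0232, adjusted p = 0.651; unadjusted p from 0.0051 to 0.0857 with 1 array left out, and above 0.05 without control replicate 2 or 4 or Wnt4βKO replicate 2 or 4). Wnt4 stayed past the unadjusted threshold in 14 of 22 alternative treatments of the data, and its unadjusted p was also 0.0525 with a normexp offset of 0, 0.055 with the macrophage and immune mean as a covariate, 0.138 with median scaling and 0.184 with the scanner's processed signal scaled by its upper quartile. Whether the Wnt4 probe falls inside the deleted stretch was not determined. Islet markers were present: 14 of 14 β-cell, 8 of 9 α-cell and 6 of 6 δ- and PP-cell markers were tested. The mean log2 signal over the 14 β-cell markers was 10.71 to 10.78 in control and 10.44 to 10.58 in Wnt4βKO arrays. Of the 14, 4 were lower and 1 higher at an unadjusted limma p of 0.05, beside 3.63% and 3.33% of all probes. An adjusted p of 0.05 was passed by 1 of the 14, beside 0.0153% of all probes. The part of the β-cell mean in the results was not tested. RNA of acinar cells was present too, and its level also moved with the groups. The mean log2 signal over 25 acinar markers was 13.45 to 13.63 in control and 12.23 to 13.30 in Wnt4βKO arrays. Of the 25, 9 were lower at an unadjusted limma p of 0.05, beside 3.63% of all probes. The groups did not overlap in this mean, so a fit with it as a covariate cannot separate it cleanly from the group. Values with this covariate are given below as description only. The mean over 14 tested macrophage and immune markers was 8.76 in Wnt4βKO replicate 4 and 7.69 to 7.98 on the other 6 arrays. All 25 acinar markers were above background on some array, and of 17 macrophage and immune markers 1 was on none. In RNA from whole islets, fewer cells of a type and less RNA per cell cannot be told apart.

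In the mevalonate pathway, Fdps was the member that differed most clearly, and it had no other tested probe to compare. It encodes farnesyl pyrophosphate synthase, whose product feeds sterols, ubiquinone, dolichol and protein prenylation. Its log2 signal was 10.20, 10.23 and 10.30 on the control arrays. It was 9.93, 9.60, 9.67 and 9.60 on the Wnt4βKO arrays. All 4 Wnt4βKO arrays lay below all 3 control arrays, and the control arrays spanned less than the gap to the highest Wnt4βKO array. Fdps averaged 10.24 ± 0.05 over the controls (SD, n = 3) and 9.70 ± 0.16 over the knockouts (SD, n = 4), or 68.5% of the control level. This is a log2 difference of -0.545 ± 0.10 (SE; 95% interval -0.77 to -0.32; unadjusted limma p 0.000715, adjusted p = 0.398). Fdps differed by -0.53 within slide row 1 and by -0.58 within row 2, and by -0.70 with the acinar mean as a covariate. The unadjusted p was 0.0809 with median scaling and 0.0963 with the processed signal, at differences of -0.54 and -0.43, and the groups overlapped under both.

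**Figure D1:**
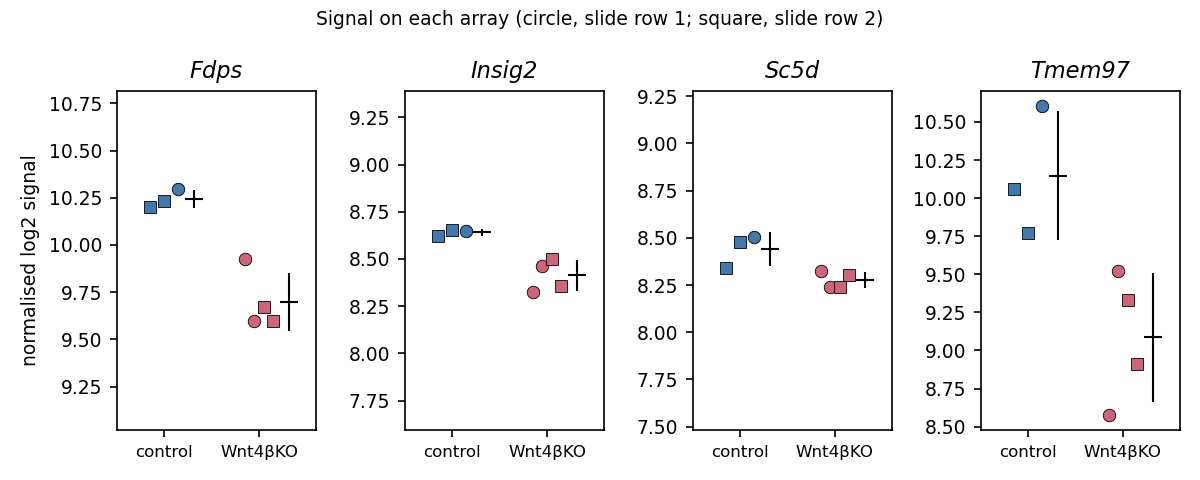
Normalised log2 signal of 3 members, Fdps, Insig2 and Sc5d, and of 1 further gene, Tmem97, on each array. Circles are arrays of slide row 1 and squares those of row 2; the bars are the mean and SD of 3 control and 4 Wnt4βKO arrays. For Fdps, Insig2, Sc5d and Tmem97 all Wnt4βKO points lie below all control points.

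None of the other 5 measured mevalonate enzymes passed the unadjusted threshold, and their differences from Fdps were not tested. Hmgcs1, the cytosolic synthase that makes HMG-CoA, averaged 9.80 ± 0.35 over the controls (SD, n = 3) and 9.78 ± 0.10 over the knockouts (SD, n = 4), a log2 difference of -0.02 with a 95% interval of -0.40 to 0.35. Idi1, which converts isopentenyl pyrophosphate to its isomer just before the step of Fdps, differed by 0.06 (95% interval -0.54 to 0.66). Mvd, the decarboxylase, differed by 0.15 (95% interval -0.18 to 0.48). The intervals of Hmgcs1, Idi1 and Mvd all hold 0.

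Mevalonate kinase, Mvk, had a log2 signal of 8.91, 8.93 and 8.74 on the control arrays, against 9.49, 8.84, 9.22 and 9.12 on the Wnt4βKO arrays. Of the Wnt4βKO arrays 3 lay above every control array, and replicate 2 lay within the control range. Mvk differed by 0.31 ± 0.15 (SE; unadjusted limma p 0.0743, adjusted p = 0.751), and a dimmer Mvk probe gave -0.02. With the acinar mean as a covariate the difference of Mvk was 0.02, with an unadjusted p of 0.906. Pmvk, the next kinase, had a log2 signal of 9.99, 9.58 and 10.36 on the control arrays, against 10.21, 9.91, 10.18 and 9.99 on the Wnt4βKO arrays. Its groups overlapped fully, and its 2 probes gave log2 differences of 0.10 and -0.06.

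Among the 11 enzymes from squalene to cholesterol, 8 had a log2 difference below 0 and 3 above, with a median of -0.02. None passed the unadjusted threshold with its brightest probe. Sc5d, the sterol C5-desaturase near the end of the pathway, came nearest. Its log2 signal was 8.34, 8.48 and 8.51 on the control arrays. It was 8.32, 8.24, 8.24 and 8.31 on the Wnt4βKO arrays. The groups did not overlap, but control replicate 2 and Wnt4βKO replicate 1 lay close together. Sc5d differed by -0.16 ± 0.07 (SE), to 89.2% of the control level (unadjusted limma p 0.0538, adjusted p = 0.728). The difference was -0.22 within slide row 1, -0.14 within row 2 and -0.23 with the acinar mean as a covariate. The groups of Sc5d overlapped under cyclic loess, median scaling and the processed signal, and Sc5d had no other tested probe.

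Hsd17b7, a ketosteroid reductase of the pathway, had the highest log2 difference of the members, 0.41 ± 0.23 (SE; unadjusted limma p 0.117). Its signal was 7.81 in Wnt4βKO replicate 1 and between 6.61 and 7.21 on the other 6 arrays, and with the acinar mean as a covariate the difference was -0.02. Fdft1, squalene synthase, which takes up the product of Fdps, had the widest interval, from -1.11 to 0.87. Its log2 signal was 7.05 in Wnt4βKO replicate 4 and 8.22 to 8.98 on the other arrays, while a second Fdft1 probe read 8.06 in that replicate and 7.95 to 8.68 elsewhere. The low reading of Fdft1 was thus seen with 1 of its 2 probes.

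Ebp, the sterol isomerase, had a log2 signal of 10.84, 10.64 and 10.88 on the control arrays, against 10.49, 10.59, 11.20 and 11.02 on the Wnt4βKO arrays. All control arrays lay between Wnt4βKO replicates 1 and 2, which were lower, and replicates 3 and 4, which were higher, and the probes of Ebp gave log2 differences of 0.04 and -0.26. Msmo1, the sterol C4-methyl oxidase, gave -0.01 with its brightest probe and -0.53 with a dimmer one (unadjusted limma p 0.942 and 0.0332). With the dimmer Msmo1 probe every Wnt4βKO array lay below every control array. Sqle, squalene epoxidase and an early rate-limiting step, varied little between the control arrays, from 10.62 to 10.63, and lay between 10.07 and 10.79 in Wnt4βKO arrays. The other 5 enzymes, Lss, Cyp51, Tm7sf2, Nsdhl and Dhcr7, had log2 differences from -0.03 to 0.04. The 95% interval was -0.21 to 0.29 for Tm7sf2 and -0.26 to 0.25 for Dhcr7. The probe of Dhcr7 read only 6.12 to 6.48, so its interval does not show an absence of change. Nsdhl was dim, well above background on 5 of the 7 arrays, and its log2 difference of -0.02 became -0.865 with the processed signal (unadjusted limma p 0.107).

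**Figure D2:**
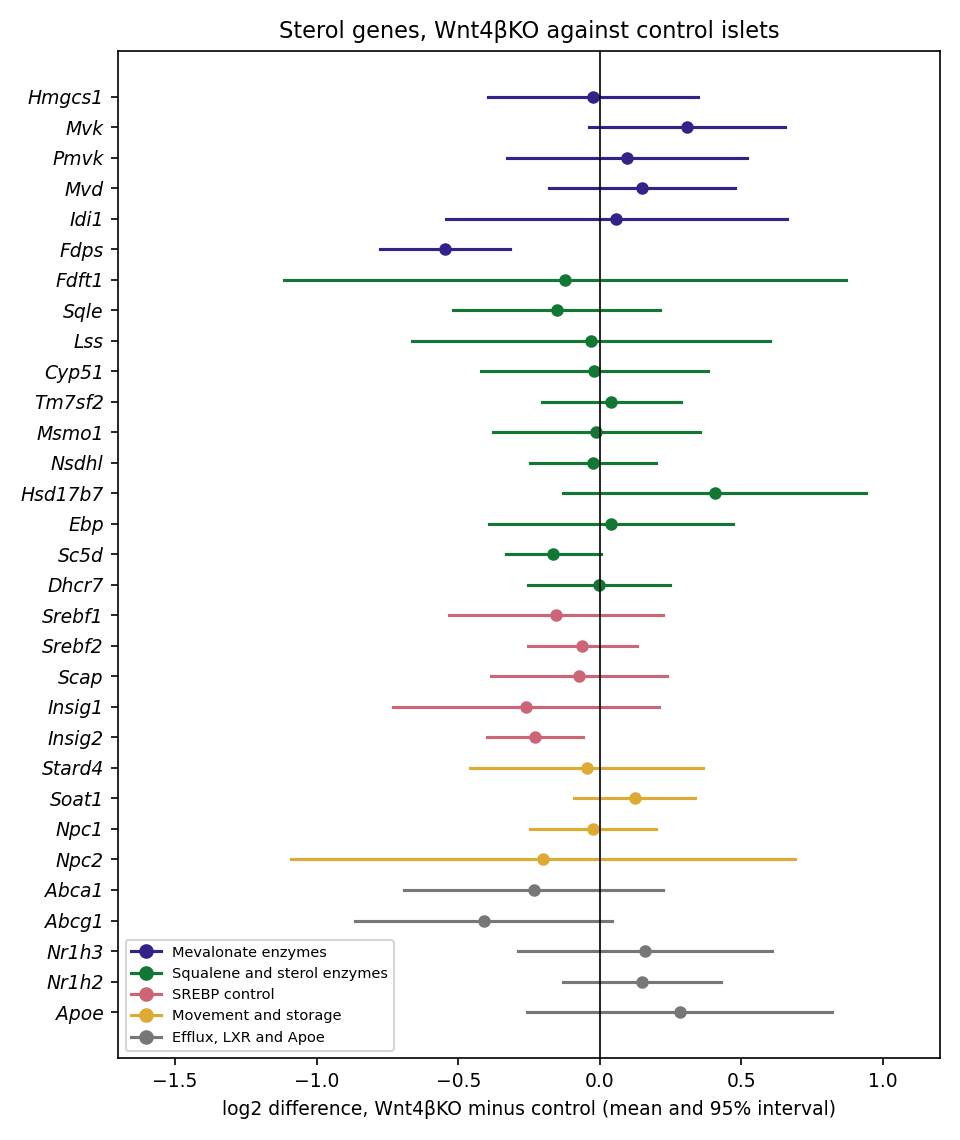
Log2 difference of each of 31 members, Wnt4βKO minus control, with its 95% interval from limma (3 control and 4 Wnt4βKO arrays), coloured by role. The intervals of Fdps and Insig2 lie below 0; the others cross 0, and that of Sc5d ends at 0.0035.

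The 5 genes of sterol-regulated control had log2 differences below 0, with a median of -0.15, as had 49.1% of all probes. Insig2, 1 of the 2 proteins that retain Scap in the endoplasmic reticulum, was the only one of them past the unadjusted threshold. Its log2 signal was 8.62, 8.65 and 8.65 on the control arrays. It was 8.33, 8.46, 8.50 and 8.36 on the Wnt4βKO arrays. The control arrays lay together, and the Wnt4βKO arrays all lay below them. Insig2 differed by -0.23 ± 0.07 (SE), to 85.4% of the control level (unadjusted limma p 0.0147, adjusted p = 0.616). The difference was -0.25 within row 1 and -0.21 within row 2. With the acinar mean as a covariate the difference of Insig2 was -0.12, with an unadjusted p of 0.257. Insig2 stayed past the unadjusted threshold in 14 of 22 alternative treatments of the data, and its groups overlapped under median scaling and the processed signal. The other 2 Insig2 probes gave -0.06 and -0.23, neither past the threshold.

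Insig1, the paralogue that SREBP itself switches on, was read at 7.43, 7.15 and 7.84 on the control arrays, against 7.61, 7.14, 7.11 and 6.98 on the Wnt4βKO arrays. Insig1 differed by -0.26 ± 0.20 (SE; unadjusted limma p 0.231), with overlapping groups. The SREBP genes differed less in the main fit. Srebf2, the main regulator of cholesterol synthesis, differed by -0.06 (95% interval -0.25 to 0.13). Its probe was dim, at 6.35 to 6.62, and the difference was -0.14 with a normexp offset of 0. Srebf1, better known for fatty acid synthesis, differed by -0.15 (95% interval -0.53 to 0.22). Scap differed by -0.07 (95% interval -0.38 to 0.24). The signs of 2 of these genes turned when 1 array was left out, to 0.04 for Scap without Wnt4βKO replicate 2 and 0.01 for Srebf2 without control replicate 4, and Srebf1 was at -0.02 without Wnt4βKO replicate 2. Srebf1, Scap and Sqle were all lowest in Wnt4βKO replicate 2.

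Among the genes of movement and storage none passed the unadjusted threshold. Soat1, which esterifies cholesterol for storage, differed by 0.12 (95% interval -0.09 to 0.34), and its other 3 probes gave 0.05 to 0.14. Npc1, the membrane protein that exports cholesterol from lysosomes, differed by -0.02 (95% interval -0.25 to 0.20). Npc2, its soluble partner, had a log2 SD of 0.72 in control and 0.50 in Wnt4βKO islets and differed by -0.20 (95% interval -1.09 to 0.69). Stard4, a carrier of cholesterol between membranes, differed by -0.05 (95% interval -0.46 to 0.36).

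The exporters Abca1 and Abcg1, which pass cholesterol to lipoproteins and are switched on by LXR, had log2 differences below 0, neither past the unadjusted threshold. Abcg1 averaged 8.60 ± 0.38 over the controls (SD, n = 3) and 8.19 ± 0.22 over the knockouts (SD, n = 4), a log2 difference of -0.41 ± 0.19 (SE; unadjusted limma p 0.0707). Control replicate 2, at 8.19, lay within the range of the Wnt4βKO arrays. The difference of Abcg1 was -0.24 without control replicate 3 (unadjusted limma p 0.247). It was -0.62 without control replicate 2 (unadjusted limma p 0.0084) and -0.49 without Wnt4βKO replicate 1 (unadjusted limma p 0.0466). In the other fits that left out 1 array, Abcg1 did not pass the unadjusted threshold. Abca1 differed by -0.23 ± 0.20 (SE), and control replicate 3, at 8.43, was the highest array, the next being Wnt4βKO replicate 1 at 7.92. Without control replicate 3 the difference of Abca1 was 0.0001. The LXR genes had differences of the other sign. Nr1h3 (LXRα) differed by 0.16 (95% interval -0.29 to 0.61).

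Nr1h2 (LXRβ) had a log2 signal of 9.51, 9.12 and 9.42 on the control arrays, against 9.32, 9.46, 9.59 and 9.60 on the Wnt4βKO arrays. The difference was 0.15 (95% interval -0.13 to 0.43), against -0.07 with its dimmer probe. Apoe, an apolipoprotein that takes up exported cholesterol and is also abundant in macrophages, had a log2 signal of 11.56, 11.90 and 12.06 on the control arrays, against 11.96, 11.76, 12.09 and 12.70 on the Wnt4βKO arrays. With its brightest probe, the highest reading of Apoe fell on Wnt4βKO replicate 4, the array with the highest macrophage and immune mean. Its dimmer probe read highest in control replicate 3, at 9.85, against 9.70 in Wnt4βKO replicate 4. The part of macrophage RNA in these readings was not tested. The mean log2 difference of Apoe was 0.28 ± 0.23 (SE; unadjusted limma p 0.258), and its other probe gave -0.38. It was 0.10 with the macrophage and immune mean as a covariate (unadjusted limma p 0.549) and 0.09 without Wnt4βKO replicate 4.

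Several members differed between arrays in a way that did not follow the groups. The 7 arrays lay on 1 slide in 2 rows, as the array positions in the file headers show: control replicate 4 and Wnt4βKO replicates 1 and 2 in row 1, and control replicates 2 and 3 and Wnt4βKO replicates 3 and 4 in row 2. The rows were compared after the data were seen. In 4 members every row 1 array lay above every row 2 array (Hmgcs1, Idi1, Lss and Stard4), beside 4.95% of all probes, a share that comes to 1.54 of 31. In 2 members every row 1 array lay below (Srebf1 and Npc2), beside 5.67%. With the row as a term in the limma fit, 5 members were higher in row 1 at an unadjusted p of 0.05, beside 5.01% of all probes, and 2 were lower, beside 5.76%. No member passed an adjusted p of 0.05 for the row, nor did any of the 26151 probes, whose lowest was 0.0837.

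Idi1 showed the row difference most clearly. Its log2 signal was 7.28 in control replicate 4 and 7.31 and 7.33 in Wnt4βKO replicates 1 and 2, the arrays of row 1. In row 2 it was 6.91 and 6.53 on the control arrays, against 6.64 and 6.58 on the Wnt4βKO arrays. The row term was 0.65 ± 0.11 (SE; unadjusted limma p 0.000781, adjusted p = 0.16), and within the rows the groups differed by 0.04 in row 1 and by -0.11 in row 2. Stard4 read 6.67, 6.58 and 6.54 on the row 1 arrays and 6.36, 6.13, 6.08 and 6.17 on the row 2 arrays, a row term of 0.43 ± 0.08 (SE; unadjusted limma p 0.00157). Both groups thus held higher and lower arrays of Idi1 and Stard4. These 2 genes kept the order of the rows under cyclic loess, median scaling and the processed signal.

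For Hmgcs1 the row term was 0.32 (unadjusted limma p 0.0275), with 10.20, 9.78 and 9.91 in row 1 and 9.56 to 9.73 in row 2, and the rows overlapped under median scaling. Insig1 had a row term of 0.41 (unadjusted limma p 0.0259), although its rows overlapped. Lss, lanosterol synthase, had a row term of 0.60 with its brightest probe (unadjusted limma p 0.0119), but -0.11 and 0.01 with its other 2 probes, and its rows overlapped under median scaling and the processed signal. Npc2 moved the other way, with 8.29, 8.28 and 8.92 in row 1 and 8.96 to 9.64 in row 2, a row term of -0.87 (unadjusted limma p 0.00781). Srebf1 had a row term of -0.32 (unadjusted limma p 0.0386). The rows of Srebf1 overlapped under each of the 3 other scalings, and those of Npc2 under median scaling and the processed signal. Fdps, Insig2 and Sc5d had row terms of 0.11, -0.02 and 0.04. What else differed between the rows was not tested.

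**Figure D3:**
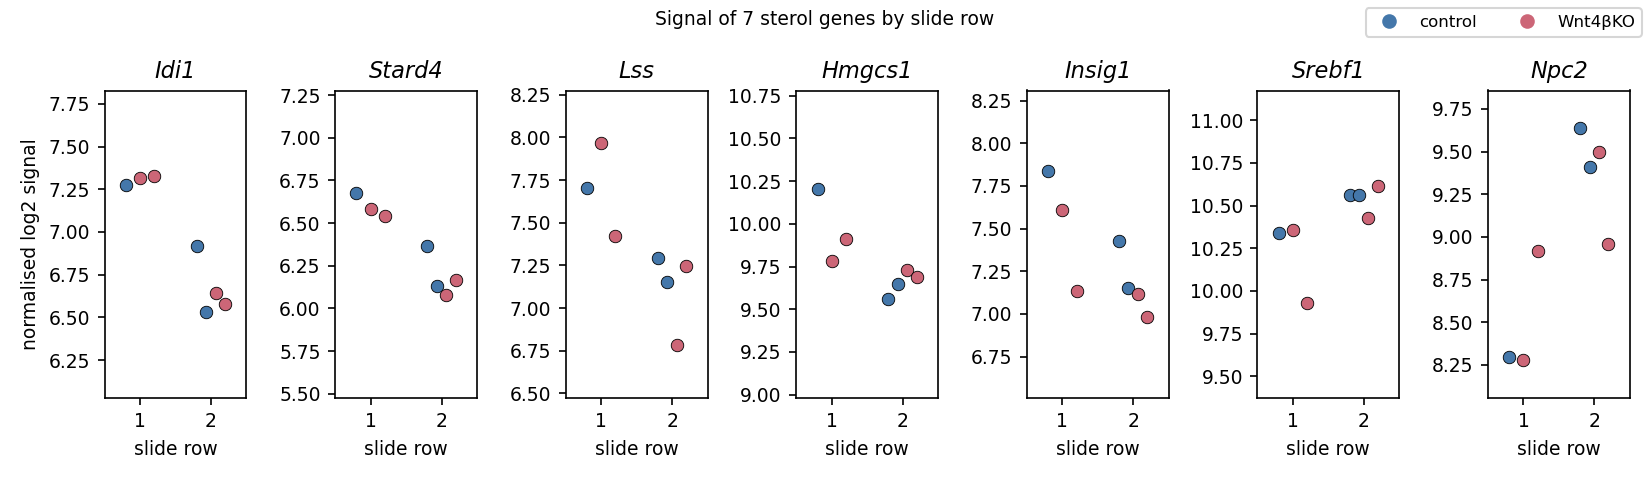
Normalised log2 signal of 7 members by slide row, with 1 control and 2 Wnt4βKO arrays in row 1 and 2 of each in row 2; each point is 1 array and every panel spans the same log2 range. Idi1, Stard4, Lss and Hmgcs1 lie higher in row 1, and Srebf1 and Npc2 lie lower, in control and Wnt4βKO islets alike.

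**Figure D4:**
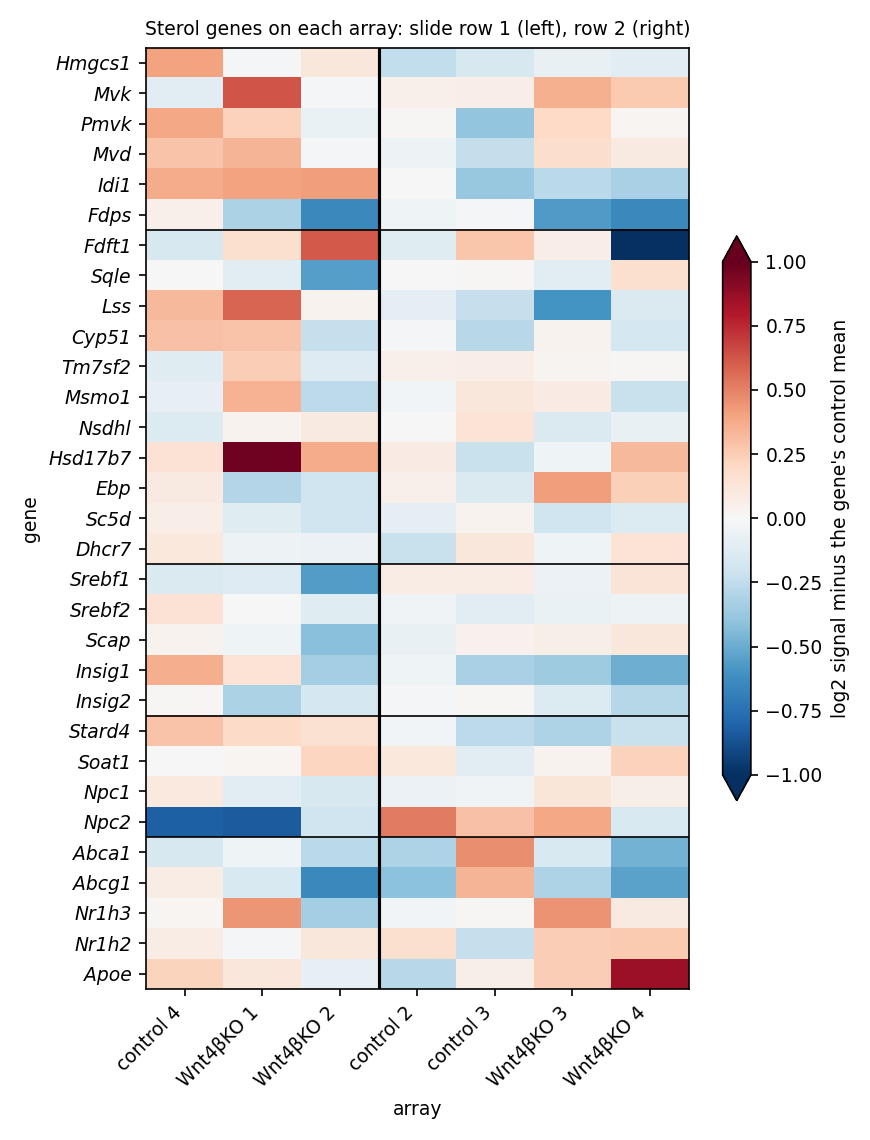
Log2 signal of each of 31 members on each array minus the mean of its 3 control arrays, with the arrays ordered by slide row and horizontal lines between roles. Fdps is below 0 on all 4 Wnt4βKO arrays in both rows, Idi1 and Stard4 follow the rows, and the most extreme cells are Fdft1 in Wnt4βKO replicate 4 (blue) and Hsd17b7 in Wnt4βKO replicate 1 (red). Colours end at 1 in either direction.

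A wider set of 66 genes of the same pathways was read for context, of which 63 were tested. None passed the adjusted threshold, 2 were lower and 1 higher at an unadjusted limma p of 0.05, beside 3.63% and 3.33% of all probes, and the median log2 difference was -0.015. Tmem97, a membrane protein that binds Npc1 and is itself switched on by SREBP, was read at 10.06, 9.77 and 10.60 on the control arrays, against 8.58, 9.52, 9.33 and 8.91 on the Wnt4βKO arrays. The groups of Tmem97 did not overlap. The log2 difference was -1.06 ± 0.27 (SE; unadjusted limma p 0.00544, adjusted p = 0.527), or 48.0% of the control level, and a dimmer probe gave -0.45 (unadjusted limma p 0.00347). The brighter Tmem97 probe stayed past the unadjusted threshold in 21 of 22 alternative treatments of the data. The exception was the fit with the acinar mean as a covariate, where its difference was -0.45, with an unadjusted p of 0.138.

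Nus1, a subunit of the enzyme that makes dolichol from farnesyl pyrophosphate, had a log2 difference of -0.25 ± 0.09 (SE; unadjusted limma p 0.0261), with no overlap between the groups, and its unadjusted p was 0.0601 without Wnt4βKO replicate 1, 0.057 without Wnt4βKO replicate 2 and 0.102 without control replicate 4. Nus1 stayed past the unadjusted threshold in 12 of 22 alternative treatments of the data, and it had no other tested probe. With the acinar mean as a covariate the difference of Nus1 was -0.16, with an unadjusted p of 0.268, and the highest unadjusted p was 0.434, with the processed signal. Osbpl5, a lipid carrier between membranes, had a log2 difference of 0.36 ± 0.14 (SE; unadjusted limma p 0.0378), with overlapping groups, and a dimmer tested probe gave 0.02. Of the fits that left out 1 array, it passed the unadjusted threshold only in that without control replicate 3, and its unadjusted p otherwise ran from 0.0541 to 0.129, at a difference of 0.21 without control replicate 2. With the acinar mean as a covariate the difference of Osbpl5 was 0.26, with an unadjusted p of 0.278, and it stayed past the unadjusted threshold in 7 of 22 alternatives.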

How the data were processed

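The authors deposited 1 Agilent scanner file per array (Feature Extraction 12.0.1.1 per the file headers), with spot intensity on a linear scale and no normalization between arrays. As the authors' methods state, normexp with an offset of 50 and quantile normalization were applied, here to the median spot signal and median local background. Control spots were dropped, flagged spots were set to missing (65 values among tested probes) and repeated spots were averaged. A probe was tested if 3 or more of the 7 arrays held it well above background (26151 of 56605). Of the non-control spots, 45.5% to 49% were well above background, with 0 saturated. Precision is limited by how many arrays there are.

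Wnt4βKO minus control was fitted on log2 values with lmFit and eBayes in limma 3.58.1 (R 4.3.3), with two-sided p-values adjusted by the Benjamini-Hochberg method over the tested probes. The scripts were tested on simulated data. Further steps used Python 3.11.15. Probes were named by accession through a RefSeq table (GRCm38.p6), which named 58.3% of them; the array was designed on another build, so no probe coordinates are given. A deposited table of processed values did not match the scanner arrays and was not used.

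The members and gene lists were chosen with earlier results of these data known. Each array is given for members past an unadjusted p of 0.05, with groups that do not overlap or with tested probes of opposite sign. Genes of the wider lists were named if past an unadjusted p of 0.05, and 1 gene of those lists is not reported here. Fdft1, Hsd17b7, Sqle, the array values of Insig1, the second probe of Msmo1 and the genes that differed between slide rows were singled out after their values were seen. Alternatives covered background correction, scaling, filters, variance model, weights, blocks, covariates and each array left out. The titles do not state that the replicate numbers pair samples, and the groups were fitted as unpaired. The paper names littermates as controls, but the titles do not say which arrays share a litter. Deviations of same-numbered arrays from their group means correlated by -0.131, 0.229 and -0.0069. With so few arrays these values cannot exclude a pairing.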

Additional observations from a re-analysis of the deposited data

Results flagged for a closer look

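Among 40 sets of 4 Wnt4βKO values examined, 3 held a replicate far from the other 3, and chance gives about 1 in 20. Replicate 4 stood apart for Dhcr7 (log2 signal 6.48 against 6.28 to 6.30; gap over range 0.941) and for Osbpl5 (10.23 against 10.01 to 10.04; 0.863). Replicate 2 stood apart for the mean deviation of the 5 efflux genes from their control means (-0.24 against 0.04 to 0.10; 0.836).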

How the results depend on the processing

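Fdps kept its direction in all 22 alternatives, with log2 differences from -0.70 to -0.43 and adjusted p from 0.376 to 1, and stayed past the unadjusted threshold in 20. Insig2 kept its direction in 22, from -0.27 to -0.12 (adjusted p from 0.489 to 1), and stayed past it in 14. Over 681 member values, 69 changed sign, in 20 members, and none of those was past the unadjusted threshold in either fit.

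The count of members lower at an unadjusted p of 0.05, 2 here, was 1 with the acinar mean as a covariate, with no background correction, with an offset of 0 and with trended and robust variance, and 0 with median scaling and with the processed signal. It ran from 2 to 4 with 1 array left out. The count higher, 0 here, ran from 0 to 2 with 1 array left out: Mvk and Nr1h3 without Wnt4βKO replicate 2, and Hsd17b7 without Wnt4βKO replicate 3. The members' median log2 difference was -0.10 with the acinar mean as a covariate and ran from -0.06 to 0.03 with 1 array left out. The count of probes past the adjusted threshold, 4 here, was 2 with the acinar mean as a covariate, 2 with the mean over the probes of a gene, 7 with the processed signal, 2 with the replicate block and 2 to 5 with 1 array left out. With the replicate block, a pairing that the titles do not state, 2 members were lower (Fdps at -0.62 and Abcg1) and the median was -0.06. Only control replicate 3 correlated best with its own number. The cause of these differences was not tested. The mean spot signal and the deposited value table were not run. Signal over background limits Nsdhl, which was well above background on 5 arrays. Other members were dim too, although well above background on all 7 arrays. Among them, Dhcr7 read 6.12 to 6.48, Srebf2 6.35 to 6.62 and Stard4 6.08 to 6.67. With a normexp offset of 0 their differences were 0.02, -0.14 and -0.13, against -0.004, -0.06 and -0.05 here. Their intervals belong to the main fit and do not show an absence of change.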
